A study of Mus musculus with 8 samples.

Results

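The genes described here carry out major histocompatibility complex (MHC) class I antigen presentation. The set lists 10 genes, namely H2-Bl, H2-K1, H2-D1, H2-T23, B2m, Tap1, Tap2, Tapbp, Psmb8 and Psmb9, and every probe set that names only 1 of them in the platform annotation was taken. This gave 26 probe sets of the 34945 that name 1 gene, and they cover 9 of the 10 listed genes among 18193 genes in all. H2-T23, the heavy chain of the non-classical molecule Qa-1, has no probe set of its own in this annotation and is therefore without a value. A further 6 probe sets name a listed gene together with another gene and were left out.

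Gene expression was measured on 8 Affymetrix GeneChip arrays for the mouse genome, 2 for each of 4 groups: Tfap2c-/- and control primordial germ cell-like cells (PGCLCs, labelled KO PGC and Ctrl PGC) and Tfap2c-/- and control embryonic stem cells (ESCs, labelled KO ESC and Ctrl ESC). All cells carried the Blimp1mVenus reporter, the control lines were the parental Tfap2c flox/flox ESC lines, and the Tfap2c-/- lines were made from them by transient transfection with a pgk-Cre plasmid, so that loss of Tfap2c and passage through Cre transfection cannot be told apart. The PGCLCs were derived in serum and feeder-free culture through epiblast-like cells, induced with BMP4, BMP8b, SCF, LIF and EGF, and sorted for mVenus. Samples 1 and 2 of a group are called biological replicates in the labels, which do not say which of the ESC lines each came from. The study made 2 control ESC lines, each with its own Tfap2c-/- line, and names all of them as array material. The spread within a group may therefore be a spread between lines, and the fit used below pairs no samples. With 2 arrays in a group the number of arrays limits the precision of every value below.

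MHC class I molecules are built from a heavy chain, encoded in mice by genes of the H2 complex, and the invariant light chain B2m, and they show peptides from inside the cell to CD8+ T cells and to natural killer cells. The peptides are cut by the proteasome, in which Psmb8 and Psmb9 replace standard catalytic subunits after interferon exposure, are pumped into the endoplasmic reticulum by the transporter Tap1 and Tap2, and are loaded onto the heavy chain with the help of tapasin, the product of Tapbp. Pluripotent and early germ cells are known for low class I surface levels, and interferon, NF-κB and the transactivator Nlrc5 are known inducers of these genes.

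H2-Bl (histocompatibility 2, blastocyst) is a class I heavy chain gene of the same complex, and RefSeq lists it for the C57BL/6J assembly GRCm38.p6 as a transcribed pseudogene at chr17:36080110-36084249. In that assembly 9 of the 10 listed genes lie on chromosome 17 and B2m lies at chr2:122147687-122153082. Psmb9 and Tap1 are divergent neighbours whose starts lie 226 bases apart.

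TFAP2C belongs to the AP-2 factors, which bind the palindrome GCCNNNGGC, and class I promoters are known for a κB element, an interferon response element and a CCAAT box. These motifs were searched on both strands in the 250 bases before the annotated start, with N for any base, and a RefSeq window was at hand for 8 of the 10 listed genes (H2-Bl and Tap2 had none). The AP-2 palindrome was found before H2-K1 and H2-D1, and 13.56% of the 27025 windows of all genes hold it. The κB letters GGGATTCCC were found before the same 2 genes and in 0.31% of all windows. The interferon-type letters GAAANNGAA were found before H2-T23 and B2m, against 7.16% of all windows, and CCAAT was found before 7 of the 8, against 34.46%. The CCAAT match 222 bases before Tap1 and that 8 bases before Psmb9 are the same bases between the divergent starts. These windows are therefore not separate matches. Only this spelling of the interferon letters was searched, so a window without a match is not shown to lack an interferon response element. The H2-D1 stretch below holds tttcacttc, which this spelling does not cover. The printed stretches (GRCm38.p6, plus strand) show these motifs in a heavy chain and in the light chain promoter, 120 bases each, in lower case with all motif matches in capitals (ATTGG is CCAAT on the other strand). That of H2-D1 is chr17:35262913-35263032, from 181 to 62 bases before the start, and that of B2m is chr2:122147548-122147667, from 139 to 20 bases before it.
H2-D1: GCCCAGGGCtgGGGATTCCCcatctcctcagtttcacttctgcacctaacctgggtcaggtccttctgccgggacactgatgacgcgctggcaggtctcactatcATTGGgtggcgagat
B2m: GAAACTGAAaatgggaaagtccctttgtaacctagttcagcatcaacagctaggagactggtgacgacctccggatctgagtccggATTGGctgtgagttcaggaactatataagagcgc
In H2-D1 the AP-2 palindrome and the κB letters stand 2 bases apart. The corresponding 120 bases of H2-K1, which lie within the annotated bounds of that gene, match those of H2-D1 at 108 positions (90.0%). A match is a description of letters and not a measured site.

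The arrays were alike in overall level, with medians from 3.47 to 3.55 on the log2 scale, and no 2 were identical. Tfap2c itself was read by 3 probe sets. On the brightest it stood at 8.52 and 8.85 in Tfap2c-/- PGCLCs against 9.84 and 10.29 in control PGCLCs, and at 7.28 and 6.47 in Tfap2c-/- ESCs against 7.88 and 9.14 in control ESCs. Both Tfap2c-/- groups lay below their controls without overlap, and neither difference was called (limma, log2 differences −1.38 and −1.63, adjusted p = 0.175 and 1.00), and whether these probes lie in the deleted exons is not given in the sources used here. The study checked the deletion in the ESC lines by other means, namely genotyping PCR and staining for TFAP2C protein. The mean of 6 measured germ cell markers was 6.48 and 6.58 in Tfap2c-/- PGCLCs and 8.08 and 8.45 in control PGCLCs, against 5.99 to 6.44 in the ESCs, and the mean of 7 ESC markers ran from 9.46 to 10.54 over all arrays. The poly-A spike controls averaged 7.25 in control PGCLC sample 2 and 6.81 and 6.19 in the Tfap2c-/- PGCLC samples, against 5.05 to 5.48 on the other arrays, and the Gapdh difference between 3′ and 5′ probe sets was 0.95 in control PGCLC sample 2 against 0.31 to 0.52 elsewhere. Their part in the results was not tested.

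Of the 26 probe sets 13 end in x_at, which marks probes that may cross-hybridize, and none end in s_at. All 4 probe sets of H2-K1 and 7 of the 9 of H2-D1 are of this kind, so their signal may include other heavy chain transcripts. Over the 8 arrays, 10 probe sets (6 of H2-D1, 3 of Tap1 and 1 of Psmb8) stayed below the median of every array, 8 stayed above it, and 8 were above it on some arrays. How far low values are compressed or noisy on these arrays was not tested, so a difference among them may misstate a change. In the text a gene is given by the probe set that was brightest on average across all 8 arrays.

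In PGCLCs the question was which of these genes changed without Tfap2c. H2-Bl fell, and B2m stood higher without passing the test. On their brightest probe sets the classical heavy chains H2-K1 and H2-D1 differed by less than the spread between samples. Of the 26 probe sets 1 was called, in the direction of lower expression (limma, adjusted p under 0.05 over all probe sets), where 2.01% of all 34945 probe sets were called and 1.14% were called lower. An unadjusted p under 0.05 was reached by 4 of the 26, against 13.6% of all. Both Tfap2c-/- samples lay on 1 side of both controls for 12 of the 26, against 45.2% of all. Of these, 6 were higher (19.7% of all) and 6 lower (25.5% of all). Group means lay more than 1.5 apart on the log2 scale, the fold rule of the study, for 2 of the 26 (H2-Bl and B2m), against 1.55% of all. Over the 9 genes the median difference was 0.33 on the log2 scale, against −0.04 for all genes. Over the 26 probe sets it was 0.08, against −0.02 for all probe sets. The value of 0.33 is that of H2-K1, whose difference changed sign without Tfap2c-/- PGCLC sample 1.

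H2-Bl stood at 4.62 and 3.53 in Tfap2c-/- PGCLCs and at 8.34 and 8.13 in control PGCLCs (probe set 1450531_at, log2). The groups did not overlap, and sample 2 of the Tfap2c-/- PGCLCs was near the median of its array. The means were 4.08 ± 0.77 in Tfap2c-/- PGCLCs and 8.23 ± 0.15 in control PGCLCs (SD, n = 2 each). H2-Bl thus fell by 4.16 on the log2 scale, or 17.8-fold (SE 0.68, 95% interval −5.73 to −2.59, limma adjusted p = 0.0282), and only 9 of the 34945 probe sets had a lower difference. The size held when any 1 of the 8 arrays was left out, between −4.71 and −3.61, but the call was lost without each of the 4 PGCLC arrays in turn. The adjusted p was then 0.0696 without Tfap2c-/- PGCLC sample 1, 0.199 without Tfap2c-/- PGCLC sample 2, 0.107 without control PGCLC sample 1 and 0.184 without control PGCLC sample 2. In a bulk sample, fewer cells that express a gene and less RNA per cell cannot be told apart.

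**Figure D1:**
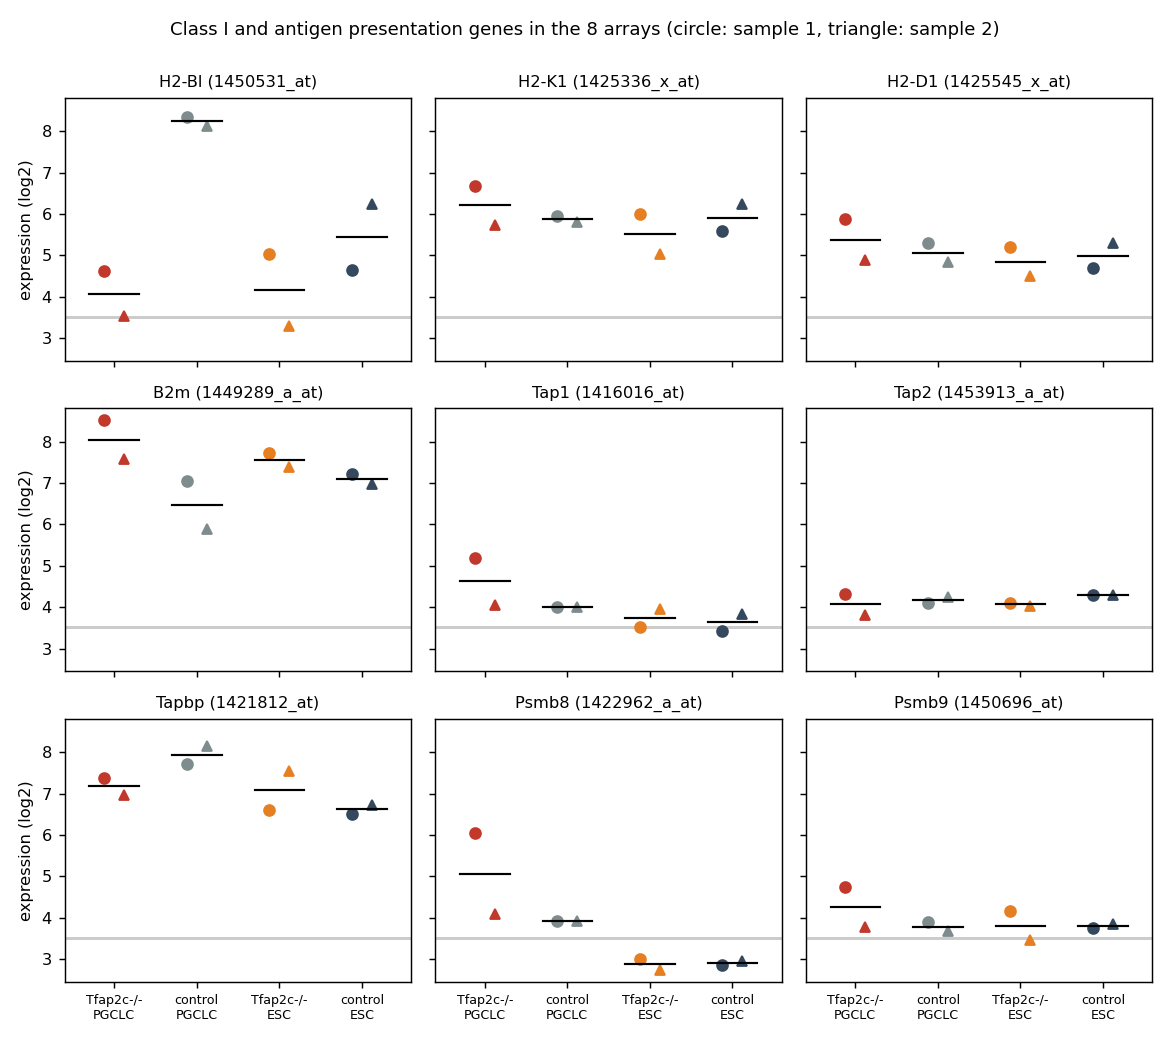
Expression of the 9 measured genes (log2, y axis) in Tfap2c-/- PGCLCs, control PGCLCs, Tfap2c-/- ESCs and control ESCs, 1 panel per gene with its probe set. Points are samples (circle sample 1, triangle sample 2), black lines are group means and the grey band spans the array medians (3.47 to 3.55). H2-Bl is high in both control PGCLC samples (8.34 and 8.13), while 7 of the 9 genes have their highest value in Tfap2c-/- PGCLC sample 1, a count that was not made over all genes.

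B2m is the invariant light chain of class I molecules. It stood at 8.51 and 7.58 in Tfap2c-/- PGCLCs and at 7.06 and 5.90 in control PGCLCs on probe set 1449289_a_at. The groups did not overlap, but the 2 samples of each group lay farther apart (0.93 in Tfap2c-/- PGCLCs and 1.16 in control PGCLCs) than the nearest samples of different groups. The difference was 1.57 on the log2 scale, or 2.97-fold (SE 0.41, 95% interval 0.61 to 2.53), and did not pass the test (limma adjusted p = 0.121). With the sample number as a block it passed (limma adjusted p = 0.0290), but the labels tie no number to a line. The second probe set of B2m gave 8.36 and 7.52 in Tfap2c-/- PGCLCs and 7.13 and 6.01 in control PGCLCs, a difference of 1.37 (adjusted p = 0.148). Without control PGCLC sample 2, the lowest B2m value of the series, the difference on the first probe set was 0.99 (adjusted p = 0.562).

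The classical heavy chains H2-K1 and H2-D1, which present peptides to CD8+ T cells in most tissues, did not differ beyond the spread on their brightest probe sets. H2-K1 stood at 6.68 and 5.73 in Tfap2c-/- PGCLCs and at 5.95 and 5.80 in control PGCLCs (1425336_x_at), a difference of 0.33 (95% interval −0.63 to 1.29, limma adjusted p = 0.830). Its 4 probe sets gave differences from −0.39 to 0.38. The lowest was that of the dimmer 1450534_x_at, where the groups did not overlap (not called). H2-D1 stood at 5.88 and 4.88 in Tfap2c-/- PGCLCs and at 5.29 and 4.83 in control PGCLCs (1425545_x_at), a difference of 0.32 (95% interval −0.60 to 1.24, adjusted p = 0.827), and its 9 probe sets ran from −0.35 to 0.36. Without overlap, 1452544_x_at of H2-D1 was lower (−0.16) and 1451934_at higher (0.07), and neither was called. On the brightest probe set of H2-K1 both control samples lay between the Tfap2c-/- samples. On that of H2-D1 1 of them did and the other lay just below. The difference of both genes changed sign without Tfap2c-/- PGCLC sample 1 (−0.15 for H2-K1 and −0.18 for H2-D1).

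Among the genes of peptide supply, each on its brightest probe set, Tapbp was the one lower in both Tfap2c-/- PGCLC samples. It stood at 7.36 and 6.97 in Tfap2c-/- PGCLCs and at 7.71 and 8.15 in control PGCLCs (1421812_at), a difference of −0.76 (SE 0.32, 95% interval −1.50 to −0.02, limma adjusted p = 0.348). The groups did not overlap, and the dimmer probe set of Tapbp gave −0.33. Tap1 stood at 5.19 and 4.06 in Tfap2c-/- PGCLCs and at 3.997 in both control PGCLC samples (1416016_at), a difference of 0.63 (adjusted p = 0.532) that was 0.06 without Tfap2c-/- PGCLC sample 1. The dim probe sets of Tap1, below the median of every array, gave −0.18 (groups without overlap), −0.11 and 0.17. The partner chain of the transporter, Tap2, stood at 4.31 and 3.83 in Tfap2c-/- PGCLCs and at 4.10 and 4.26 in control PGCLCs, a difference of −0.11 (95% interval −0.59 to 0.37, adjusted p = 0.901). Its groups overlapped.

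Psmb8, an inducible catalytic subunit of the immunoproteasome, stood at 6.04 and 4.09 in Tfap2c-/- PGCLCs and at 3.91 in both control PGCLC samples (1422962_a_at). Sample 1 of the Tfap2c-/- PGCLCs was far above the rest and sample 2 just above the controls. The difference was 1.15 (SE 0.53, limma adjusted p = 0.398), which was 0.17 without Tfap2c-/- PGCLC sample 1 and 2.13 without Tfap2c-/- PGCLC sample 2, where it passed (adjusted p = 0.0282). Psmb9, the subunit made from the neighbouring gene of Tap1, stood at 4.75 and 3.78 in Tfap2c-/- PGCLCs and at 3.90 and 3.68 in control PGCLCs, a difference of 0.48 (adjusted p = 0.642) with overlapping groups.

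**Figure D2:**
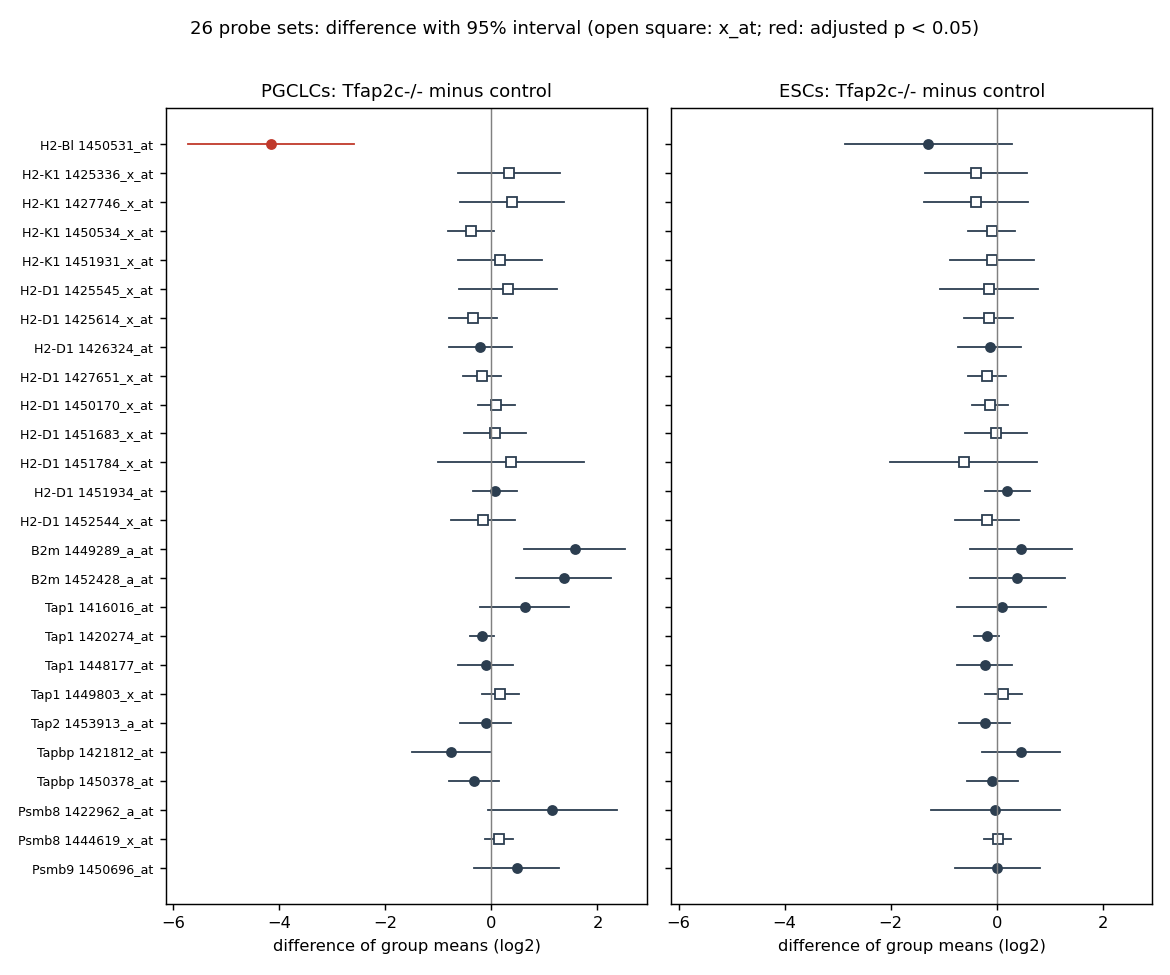
Difference of group means, Tfap2c-/- minus control (log2, x axis), for each of the 26 probe sets in PGCLCs (left) and ESCs (right). Lines are 95% intervals from limma, open squares are x_at probe sets and filled circles the others, and red marks adjusted p under 0.05. The only red interval is that of H2-Bl in PGCLCs (−5.73 to −2.59).

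A single array carried many of the high values. Tfap2c-/- PGCLC sample 1 held the highest value of the 8 arrays for 7 of the 9 genes (B2m, H2-D1, H2-K1, Psmb8, Psmb9, Tap1 and Tap2). All 9 genes were higher there than in Tfap2c-/- PGCLC sample 2, by a median of 0.97 on the log2 scale, and 19 of 21 interferon target genes were also higher, by a median of 0.30. Of 8 further class I heavy chain genes 4 were higher there, and of 7 ESC markers 1 was. The same counts were not made over all genes, so no general share stands beside them. Of 8 fibroblast markers 6 were higher in sample 1 than in sample 2 of the Tfap2c-/- PGCLCs, by a median of 0.62. The mean of these markers was 3.69 and 3.04 in Tfap2c-/- PGCLCs, 3.63 and 2.88 in control PGCLCs and 2.71 to 2.83 in the ESCs, and 4 of the 8 stayed below the median of every array. Markers of extraembryonic endoderm (5 of 6, median gap 0.34) and trophoblast (3 of 4, median gap 0.50) were also higher in sample 1 than in sample 2 of the Tfap2c-/- PGCLCs. Their means were 3.59 and 3.33 in Tfap2c-/- PGCLCs and 3.58 and 3.19 in control PGCLCs for endoderm, and 4.46 and 4.02 in Tfap2c-/- PGCLCs and 4.51 and 4.62 in control PGCLCs for trophoblast, while 2 of 4 early mesoderm markers were higher in sample 1. The mean of 7 immune cell markers lay between 3.30 and 3.54 on all arrays. The part of these levels in the class I values was not tested.

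The further genes of the pathway were read from lists, in which 1 of 89 measured genes was called (1.12%, against 2.56% of all genes). Of the other class I heavy chain genes 8 of 26 had a probe set of their own, and none was called (median difference −0.04). Of these H2-Q5, H2-Q10, H2-T24 and H2-M9 stayed below the median of every array, H2-M10.1 was below it on 7 arrays and H2-Q2 on 6. The largest differences in that list were −0.79 for H2-Q2 (adjusted p = 0.818) and 0.55 for H2-M3 (adjusted p = 0.408). None was called among 7 class I-like genes (median −0.02), 9 genes of peptide loading and trimming (median 0.03), 3 standard proteasome catalytic subunits (median −0.13), 9 class II genes (median 0.01) and 2 NKG2D ligands. The NKG2D ligands stayed below the median of every array, and each class II gene but H2-Eb1 was below it on 7 or 8 arrays. Small differences among such dim genes say little.

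Psmb10, the remaining catalytic subunit of the immunoproteasome, stood at 7.46 and 6.50 in Tfap2c-/- PGCLCs and at 6.18 and 6.05 in control PGCLCs (difference 0.87, limma adjusted p = 0.222). Psme3, which encodes the nuclear proteasome activator PA28γ, stood at 6.50 and 6.26 in Tfap2c-/- PGCLCs and at 7.09 and 7.13 in control PGCLCs (difference −0.73, adjusted p = 0.163). Both pairs of groups were apart, in opposite directions, and none of the 4 measured genes of that list was called (median −0.34).

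Among 14 measured regulators of class I transcription none was called (median 0.08). Rfx5, a subunit of the factor that binds the X box of class I and class II promoters, came nearest, at 6.27 and 6.25 in Tfap2c-/- PGCLCs and 5.65 and 5.40 in control PGCLCs (difference 0.73, SE 0.17, limma adjusted p = 0.0779). The groups did not overlap. The partners of Rfx5 in that factor lay the other way, with a difference of −0.56 for Rfxap (adjusted p = 0.512) and −0.51 for Rfxank (adjusted p = 0.657). Nlrc5, the class I transactivator, differed by 0.06 (adjusted p = 0.937). Its probe set read 2.01 to 2.49 and stayed below the median of all 8 arrays, so it could hardly show a difference.

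Of 12 genes of interferon receptors and signalling 1 was called, Socs3, a feedback inhibitor of cytokine signalling through JAK and STAT proteins. It stood at 9.22 and 9.55 in Tfap2c-/- PGCLCs and at 8.16 and 8.49 in control PGCLCs on an x_at probe set, and rose by 1.05 (SE 0.19, limma adjusted p = 0.0380). The groups did not overlap, but the call held for 2 of the 8 arrays left out in turn, those of the Tfap2c-/- ESCs, and was lost without any other array (highest adjusted p = 0.247, difference 0.89 to 1.22). None of 21 measured interferon target genes was called (median −0.12 against −0.04 for all genes). Their largest differences were those of the guanylate-binding protein genes Gbp3 and Gbp2. Gbp3 stood at 5.92 and 3.91 in Tfap2c-/- PGCLCs and at 3.26 and 3.22 in control PGCLCs (difference 1.68, adjusted p = 0.206), and Gbp2 stood at 4.54 and 3.06 in Tfap2c-/- PGCLCs and at 2.37 and 2.26 in control PGCLCs (difference 1.49, adjusted p = 0.135). Both were highest in Tfap2c-/- PGCLC sample 1.

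**Figure D3:**
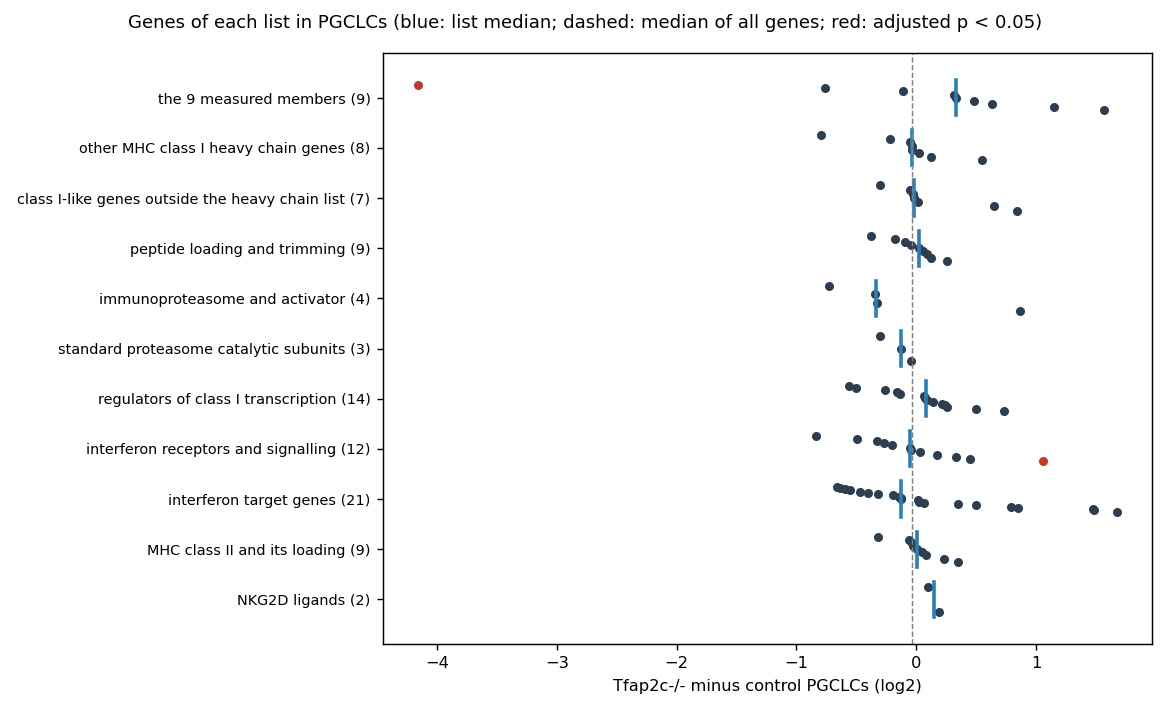
Difference of each gene between Tfap2c-/- and control PGCLCs (log2, x axis) by list, with the number of measured genes in parentheses. Each point is a gene, blue lines are list medians, the dashed line is the median of all genes (−0.04) and red marks adjusted p under 0.05. H2-Bl (−4.16) and Socs3 (1.05) are the red points.

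In ESCs the same comparison gave no call among the 26 probe sets, where 0% of all probe sets were called. None of the 26 reached an unadjusted p under 0.05, against 2.85% of all, and 7 had both Tfap2c-/- samples on 1 side of both controls, against 23.8% of all. None had group means more than 1.5 apart, against 0.0973% of all. Over the 9 genes the median difference was −0.03, against −0.00 for all genes. None of the genes in the further lists was called either.

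H2-Bl stood at 5.02 and 3.29 in Tfap2c-/- ESCs and at 4.65 and 6.24 in control ESCs. The groups overlapped and the samples lay 1.73 apart in Tfap2c-/- ESCs and 1.59 apart in control ESCs, so that the difference of −1.29 (95% interval −2.86 to 0.28, limma adjusted p = 1.00) was not beyond the spread. It ran from −2.15 to −0.42 when single ESC arrays were left out. B2m stood at 7.73 and 7.38 in Tfap2c-/- ESCs and at 7.22 and 6.98 in control ESCs, without overlap (difference 0.46, 95% interval −0.50 to 1.42, adjusted p = 1.00).

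Tapbp stood at 6.60 and 7.55 in Tfap2c-/- ESCs and at 6.51 and 6.73 in control ESCs, with overlapping groups and sample 2 of the Tfap2c-/- ESCs apart (difference 0.45, adjusted p = 1.00). Psmb8 stood at 3.02 and 2.75 in Tfap2c-/- ESCs and at 2.86 and 2.96 in control ESCs, below the array medians throughout (difference −0.03). H2-K1 averaged 5.52 ± 0.68 in Tfap2c-/- ESCs and 5.91 ± 0.47 in control ESCs (SD, n = 2 each), a difference of −0.39. The remaining 4 genes differed by −0.14 (H2-D1), 0.10 (Tap1), −0.22 (Tap2) and 0.01 (Psmb9). Tfap2c-/- ESC sample 2 held the lowest value of the 8 arrays for 5 of the 9 genes, a count that was not made over all genes.

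To ask whether the knockout acted differently in the 2 cell types, the difference of its effects was tested. None of the 26 probe sets was called, and 0.0744% of all probe sets were. H2-Bl was lowered by 2.87 more in PGCLCs (SE 0.96, 95% interval −5.09 to −0.65, limma adjusted p = 0.511). For Tapbp the difference of effects was −1.22 (adjusted p = 0.567), with a lower value in Tfap2c-/- PGCLCs and a higher mean in Tfap2c-/- ESCs. These 2 were the only member probe sets with an unadjusted p under 0.05, which 7.83% of all reached. For B2m the difference of effects was 1.11 (95% interval −0.24 to 2.46, adjusted p = 0.735) and for Psmb8 1.18 (adjusted p = 0.797). The call of H2-Bl in PGCLCs and its absence in ESCs therefore do not show that the effects differ.

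Control PGCLCs and control ESCs show the levels on which the knockout acts. This comparison shares the control samples with those above. None of the 26 probe sets was called, against 6.65% of all, and 13 had both control PGCLC samples on 1 side of both control ESC samples, against 52.3%. An unadjusted p under 0.05 was reached by 2 of the 26, against 21.7% of all, and 1 had group means more than 1.5 apart, against 3.05%. The median difference of the 9 genes was 0.07, against −0.03 for all genes.

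H2-Bl was at 8.34 and 8.13 in control PGCLCs and at 4.65 and 6.24 in control ESCs, a difference of 2.79, or 6.91-fold (SE 0.68, 95% interval 1.22 to 4.36), without overlap. Tapbp was at 7.71 and 8.15 in control PGCLCs and at 6.51 and 6.73 in control ESCs, a difference of 1.31 (SE 0.32, 95% interval 0.57 to 2.05), also without overlap. On the dimmer probe set of Tapbp the difference was 0.04 with overlapping groups, and the mean of its probe sets gave 0.68. Both genes lay at the edge of the threshold (limma adjusted p = 0.0519 for H2-Bl and 0.0521 for Tapbp). Over 19 alternatives H2-Bl was called in 6 (adjusted p from 0.0304 to 0.238) and Tapbp in 7 (adjusted p from 0.0182 to 0.260). Leaving out control ESC sample 1 brought the H2-Bl difference to 1.99, and leaving out sample 2 instead brought it to 3.59. Psmb8 was at 3.91 in both control PGCLC samples and at 2.86 and 2.96 in control ESCs, a difference of 1.00 (adjusted p = 0.323) that passed without either Tfap2c-/- PGCLC array (adjusted p = 0.0317 and 0.0348). B2m had overlapping groups (7.06 and 5.90 in control PGCLCs, 7.22 and 6.98 in control ESCs, difference −0.62, adjusted p = 0.445).

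From low to high, the order of H2-Bl over the 4 groups was Tfap2c-/- PGCLCs (4.08 ± 0.77), Tfap2c-/- ESCs (4.16 ± 1.22), control ESCs (5.45 ± 1.13) and control PGCLCs (8.23 ± 0.15, SD, n = 2 each). Control PGCLCs stood apart from the rest. Tfap2c-/- ESCs overlapped with both of the other groups, and the higher Tfap2c-/- PGCLC sample (4.62) lay just below the lower control ESC sample (4.65). The 5 genes whose mean-centred profile over the 8 arrays was nearest to that of H2-Bl, by root mean square difference on the log2 scale, were Cpeb1 (0.47), Pygl (0.58), Klhl13 (0.61), Urgcp (0.62, x_at) and Fermt3 (0.66, s_at). Cpeb1, an RNA-binding regulator of translation in germ cells, stood at 3.69 and 2.95 in Tfap2c-/- PGCLCs and at 6.43 and 6.97 in control PGCLCs. Pygl, the liver form of glycogen phosphorylase, stood at 2.48 and 2.62 in Tfap2c-/- PGCLCs and at 6.11 and 6.23 in control PGCLCs. All 5 had their highest 2 values in the control PGCLC samples, which is what the measure of likeness selects.

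**Figure D4:**
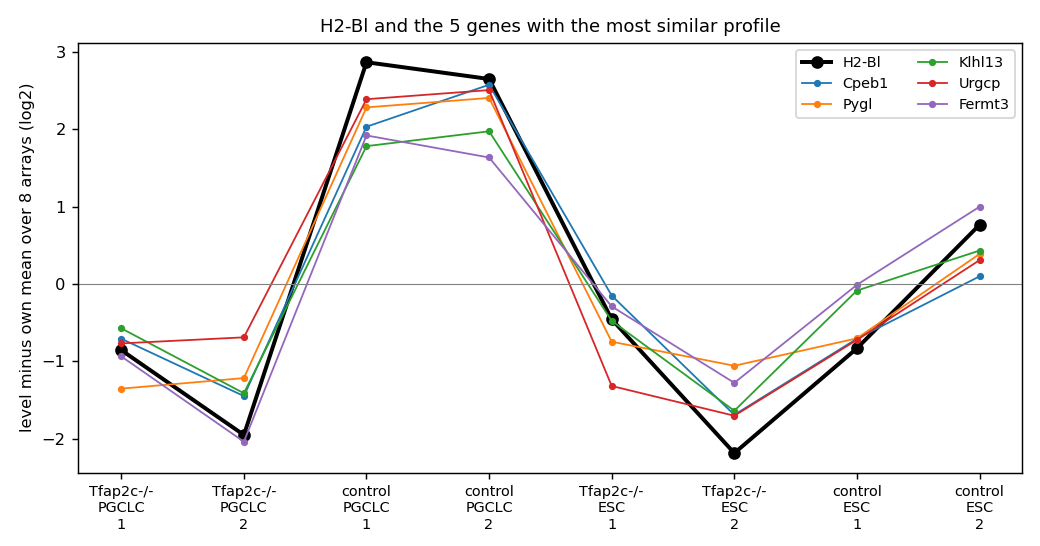
Level of H2-Bl (black) and of the 5 genes with the nearest profile (log2, each minus its own mean over the 8 arrays, y axis) in the 8 samples (x axis). All 6 lines peak in control PGCLC samples 1 and 2, where H2-Bl was at 8.34 and 8.13.

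Over the further lists, 9 of 89 measured genes were called between control PGCLCs and control ESCs, against 1350 of 18193 genes in all (7.42%). Calr, a chaperone of the peptide-loading complex, was higher by 1.56 (limma adjusted p = 0.00772), Psme1, a subunit of the interferon-inducible proteasome activator PA28, by 1.14 (adjusted p = 0.0213), Psmb6, the standard subunit that Psmb9 replaces, by 0.44 (adjusted p = 0.0430) and the interferon regulatory factor Irf1 by 1.15 (adjusted p = 0.0125). Lower in control PGCLCs were Cd1d1, which presents lipids (difference −1.52, adjusted p = 0.0332), Rfx5 (−0.92, adjusted p = 0.0205), Socs3 (−0.91, adjusted p = 0.0312) and the interferon targets Oas1a (−1.32, adjusted p = 0.0116) and Xaf1 (−2.11, adjusted p = 0.0460). These were 1 of 9 genes of peptide loading, 1 of 4 of the immunoproteasome and its activator, 1 of 3 standard subunits, 2 of 14 regulators, 1 of 7 class I-like genes, 1 of 12 of interferon signalling and 2 of 21 interferon targets, and none of 8 other heavy chain genes, 9 class II genes and 2 NKG2D ligands. Each of these 9 calls was lost without at least 2 of the 8 arrays, control ESC sample 2 and control PGCLC sample 2 among them in every case, and that of Xaf1 was lost without any 1 array.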

How the data were processed

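The authors deposited 1 value per probe set and array on the log2 scale, normalized across arrays. RMA is the method given in the study's methods, while GCRMA (no version) stands in the submitters' processing notes. Array medians differ by less than 0.1, and no reference sample is subtracted. Probe intensities, slides and scan dates were not used here, so no other background correction and no batch could be tried. All 8 value columns were used (0 were left out).

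Of 45101 probe sets 64 are controls, 932 name several genes and 9160 none in the platform annotation. The remaining 34945 were fitted with limma 3.58.1 in R 4.3.3, with 4 group means together (4 residual and 3.80 prior degrees of freedom, eBayes with a trend). Tests were two-sided, with Benjamini-Hochberg adjustment over all 34945, and called at an adjusted p under 0.05. A gene was counted through the probe set that was brightest on average, also in the lists. From these the text names every gene that passed and, for some of those with no call, the 2 with the largest difference. Nlrc5 and Rfxank were named in addition, after their values were seen. P-values measure only the spread between these samples. The members and lists were chosen with earlier results of these data known. The fit was tested on simulated data.

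Alternatives were 1 probe set or the mean of the probe sets per gene, no x_at and s_at probe sets, a mean of at least 4, values below the array median raised to it, renewed quantile normalization, no trend, the 4 arrays of a comparison alone, the replicate number as a block, the methods' fold rule (group means over 1.5 apart on the log2 scale) and each array left out. Promoters are RefSeq's (GRCm38.p6), the first window listed for a gene. Motifs and plots used Python 3.11.15, pandas 2.3.3, NumPy 2.4.6 and Matplotlib 3.10.9.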

Additional observations from a re-analysis of the deposited data

How the results depend on the processing

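The count of class I probe sets called between Tfap2c-/- and control PGCLCs (1, H2-Bl) was 2 with the replicate number as a block and 2 under the fold rule, where B2m was called as well (adjusted p = 0.0290 with the block), and 0 to 1 when 1 array was left out. Without Tfap2c-/- PGCLC sample 2 the probe set called was that of Psmb8, not H2-Bl. H2-Bl was called in 15 of 19 alternatives and was lower in all of them. The count between Tfap2c-/- and control ESCs and that for the difference of effects stayed at 0 in every alternative run. Between control PGCLCs and control ESCs (0) it was 2 with 1 probe set per gene, 2 with a mean of at least 4, 1 after renewed quantile normalization, 3 with the 4 control arrays alone, 1 with the replicate block, 1 under the fold rule, and 0 to 2 when 1 array was left out. The cause was not tested. Same-numbered samples deviated together in PGCLCs (correlation of deviations 0.40) and between Tfap2c-/- ESCs and Tfap2c-/- PGCLCs (0.33) or control PGCLCs (0.21), but not between control ESCs and Tfap2c-/- PGCLCs (−0.04), control PGCLCs (0.01) or Tfap2c-/- ESCs (−0.33), and the labels tie no number to a line, so the numbers were not taken as pairs. With the Tfap2c-/- ESC numbers crossed, chosen after seeing the data and against their agreement with the PGCLCs, the counts were 1, 0, 0 and 0. Of 646 alternative values of single genes none that was called changed sign, 585 stayed within the spread or on their side of the threshold, 38 moved by more than the spread, 19 passed anew and 4 no longer passed. Dim probe sets, 10 of 26, limit what a small difference means.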
